A study of Rattus norvegicus with 11 samples.

Results

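The genes followed here are 10 genes of the embryonic nervous system that have been tied to rat pheochromocytoma, the tumour of the chromaffin cells of the adrenal medulla: Bmp7, Sox4, Sox11, Neurod1, Ebf3, Sncg, Dok5, Mab21l1, Hs3st2 and Dlk1. They were chosen by name, and each gene was read from a probe set that carries its symbol alone, the brightest on average where a gene had several. Of the 10 genes, 9 were measured in this way, each by 1 probe set, among 14506 genes so named on 29214 probe sets. Dok5, which encodes an adaptor protein that binds receptor tyrosine kinases such as RET, was named by no such probe set and was not analysed here.

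These genes work at different steps of neural development. BMP7 is a secreted signal of the BMP family, which binds serine/threonine kinase receptors and acts through SMAD proteins; BMP signals from the dorsal aorta help to start the sympathoadrenal lineage, from which chromaffin cells and sympathetic neurons arise. DLK1 is a membrane protein related to the Notch ligands and is made by adult chromaffin cells and by adrenal capsule cells. SOX4, SOX11, NEUROD1 and EBF3 are transcription factors of neuronal precursors, gamma-synuclein (Sncg) and MAB21L1 are proteins of developing or adult neurons, and HS3ST2 adds sulfate to heparan sulfate chains and is mostly made in brain.

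Expression was measured on 1-colour Affymetrix arrays, 1 array per rat as far as the labels tell, in 7 adrenal lesions and 4 normal adrenal glands. The lesions came from rats heterozygous for a mutation of p27Kip1 (written Cdknb1 in the labels), a germline mutation carried by the MENX strain; p27Kip1 is a brake on the cell cycle in many tissues. The normal glands came from wild-type rats, and both groups had the background Sprague–Dawley white eye/Wistar–Kyoto, specific-pathogen-free housing and no treatment. Lesion replicate 1 came from a female of 23 months, replicates 2 and 3 from males of 21 months, replicates 4 and 5 from females of 13 months and replicates 6 and 7 from males of 13 months. Normal replicates 1 and 2 came from a female and a male of 24 months, and replicates 3 and 4 from a female and a male of 12 months. Rats of 21 to 24 months are called older below, and those of 12 and 13 months younger. All levels are log2 values after robust multi-array averaging, in which 1 unit is a 2-fold difference. The number of arrays limits their precision, and each p-value weighs a difference against the spread between these samples.

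The labels call the tissue adrenal lesions, with no histology for a single sample, so the name pheochromocytoma was checked against cell type markers. The 11 measured of 13 listed chromaffin cell markers (among them Th, tyrosine hydroxylase, at 11.52 to 12.57 in lesions and 11.85 to 12.32 in normal glands) had mean levels of 9.45 to 10.73 in lesions and 9.97 to 10.34 in normal glands. The 9 measured of 11 listed markers of the adrenal cortex had mean levels of 11.14 to 11.57 in lesions 2 to 7, against 10.91 to 11.30 in normal glands, and 9.94 in lesion replicate 1. In lesion replicate 4 all 11 chromaffin markers were below the lowest normal gland, an order not counted over all probe sets. The markers therefore do not settle whether each lesion sample was a pheochromocytoma, and the samples are called lesions here. The mean levels of both lists were above the array median (4.91 to 5.01) in every array, and the RNA was of whole tissue: fewer cells of a type and less RNA per cell cannot be told apart.

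Lesion replicate 1 stood apart from the other arrays. Its median correlation with them across probe sets was 0.971, against 0.980 to 0.987 for the rest, and it was highest of the 11 arrays by at least 2-fold at 295 probe sets, against 2 to 56 for the others. It was the lowest array for 9 of 9 cortical markers. The share of all probe sets lowest in an array was not counted. Lesion replicate 1 was also the single older female among the lesions, so its age and sex cannot be told apart from other traits of this sample. This array moves several values below. For each measured gene of the list, the overall test of lesions against normal glands is given with and without this array. Many values of related genes and of subsets are given only with it.

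No measured gene of the list separated the lesions from the normal glands, and the genes did not act as a block. Lesion replicate 1 had the highest level of 5 of the 9 genes (Hs3st2, Bmp7, Sox4, Dlk1 and Neurod1), lesion replicate 4 of Sox11 and Sncg, lesion replicate 3 of Ebf3, and normal replicate 3 of Mab21l1. Over all probe sets lesion replicate 1 was the highest array at 13.1%, lesion replicate 4 at 14.5%, lesion replicate 3 at 10.9% and normal replicate 3 at 6.77%. Levels at least 2-fold above the highest normal gland were seen at 2 genes in lesion replicate 1 (Hs3st2 and Bmp7), at 1 gene in lesion replicate 4 (Bmp7) and at 0 of 9 in the other 5 lesions. Over all probe sets the shares that passed this fold were 1.43% in lesion replicate 1, 0.133% in replicate 2, 0.421% in replicate 3, 0.616% in replicate 4, 0.664% in replicate 5, 0.137% in replicate 6 and 0.154% in replicate 7. With any excess over the highest normal gland counted, lesion replicate 1 exceeded it at 7 of 9 genes, replicates 3 and 4 at 4 each, replicates 5 and 7 at 3 each, replicate 6 at 2 and replicate 2 at 0, while 15.3% to 28.2% of all probe sets did so in the 7 lesions.

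**Figure D1:**
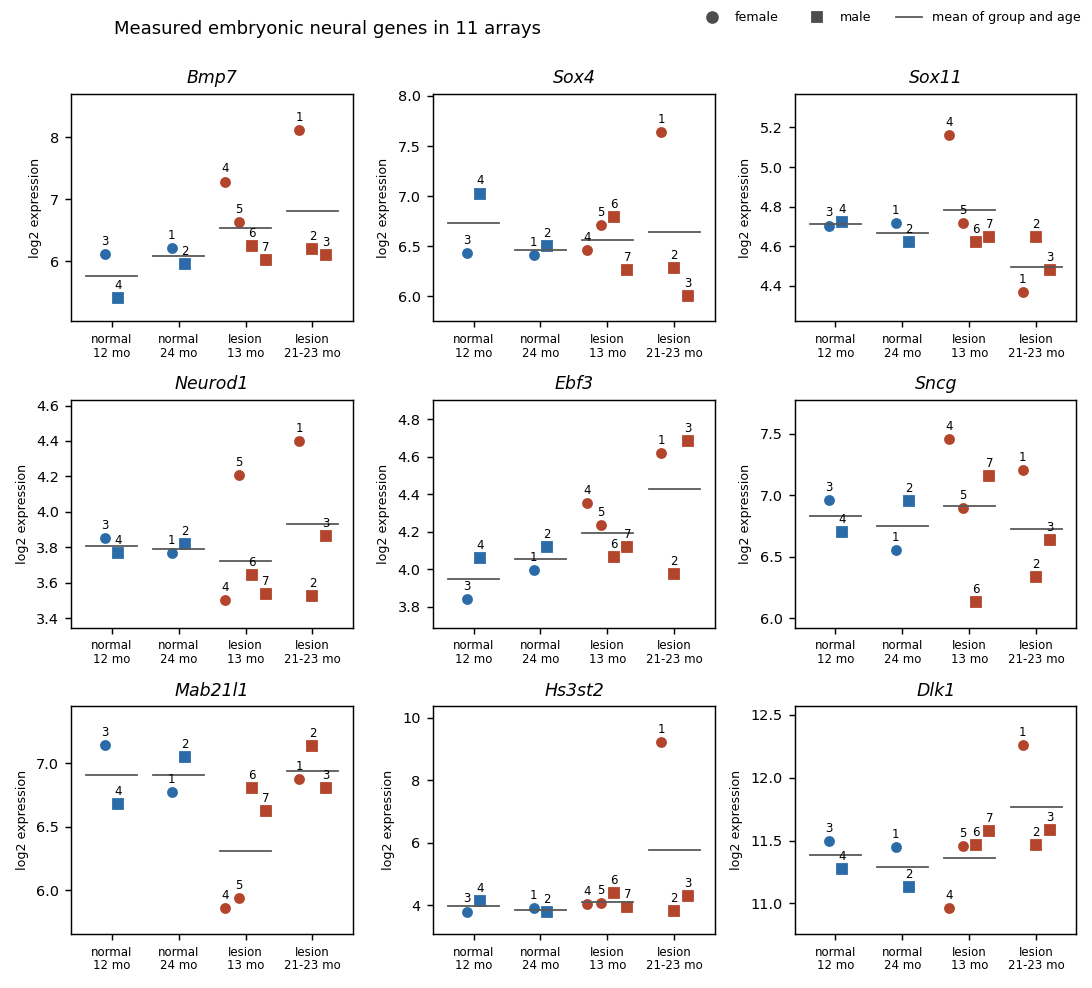
Log2 expression (vertical axis, its own range in each panel) of the 9 measured genes in 11 arrays, split along the horizontal axis by group and age; points are single arrays with their replicate number (circles females, squares males) and lines are means of group and age. Lesion replicate 1 lies at 9.23 for Hs3st2, where the other 10 arrays lie between 3.78 and 4.38, and lesion replicates 4 and 5 lie lowest for Mab21l1.

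Bmp7, the secreted signal, was measured at 8.11, 6.19, 6.10, 7.28, 6.63, 6.24 and 6.01 in lesion replicates 1 to 7. In normal replicates 1 to 4 it was 6.21, 5.95, 6.11 and 5.40. Lesions 1, 4, 5 and 6 were above the highest normal gland, lesion replicate 1 by 1.90 and lesion replicate 4 by 1.07 on the log2 scale, and lesions 2, 3 and 7 lay among the normal glands. The lesions averaged 6.65 ± 0.78 (SD, n = 7) and the normal glands 5.92 ± 0.36 (SD, n = 4), and lesion minus normal was 0.73 (95% interval -0.07 to 1.54, limma adjusted p = 0.693). Without lesion replicate 1 the difference was 0.49 (-0.05 to 1.03, adjusted p = 0.564).

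Bmp7 was also ordered by sex. The 3 female lesions (8.11, 7.28 and 6.63) were above the 4 male lesions (6.01 to 6.24), and the female normal glands (6.21 and 6.11) were above the male ones (5.95 and 5.40). Such an order in both groups was seen at 101 of 29214 probe sets (0.346%). With group in the model, males were lower than females by a fitted -0.94 (95% interval -1.47 to -0.41), with an unadjusted p of 0.0025 that ranked 75 of 29214 and an adjusted p of 0.969 in limma. Male minus female was -0.68 without lesion replicate 1, adjusted p = 0.476. Lesion minus normal was 1.18 over female arrays (0.08 to 2.28, adjusted p = 0.686) and 0.46 over male arrays (0.06 to 0.85, adjusted p = 0.646). Within each sex all lesions were above all normal glands, narrowly so in males (lowest lesion 6.01, highest normal gland 5.95). The share of all probe sets with such an order was not counted, so the order is given as a description and no conclusion is drawn from it. The female lesions also included the lesion with the lowest cortical markers (replicate 1) and those with the highest adipocyte markers (replicates 4 and 5); the part of these markers in the sex order was not tested.

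Dlk1, the Notch-ligand relative, was at 12.26 in lesion replicate 1, and at 11.46, 11.59, 10.96, 11.46, 11.46 and 11.58 in lesion replicates 2 to 7. Normal replicates 1 to 4 gave 11.45, 11.13, 11.49 and 11.27. Lesion replicate 1 exceeded the highest normal gland by 0.77, lesions 3 and 7 were just above it, and lesion replicate 4 was the lowest of all arrays, so the groups overlapped. Lesions differed from normal glands by 0.20 (95% interval -0.20 to 0.61, adjusted p = 0.869), and by 0.084 (-0.20 to 0.37, adjusted p = 0.889) without lesion replicate 1.

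Hs3st2, the heparan sulfate 3-O-sulfotransferase, had the most uneven profile of the list. It was at 9.23 in lesion replicate 1, and at 3.82, 4.28, 4.02, 4.05, 4.38 and 3.93 in lesion replicates 2 to 7. The normal glands gave 3.91, 3.78, 3.79 and 4.12. A single array stood high, and the other 10 were below their own array's median level over probe sets. The deposited value of lesion replicate 1 was 4.85 log2 units above that of the next array, the widest such gap of a highest array among the 29214 probe sets. As signal over background was not analysed here, the gap is given as a difference of deposited values and not as an exact fold. The lesion minus normal difference was 0.92 (95% interval -0.99 to 2.82, adjusted p = 0.879) with lesion replicate 1 and 0.18 (-0.09 to 0.45, adjusted p = 0.683) without it.

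Of the 5 genes highest in lesion replicate 1, 3 had an entry in the promoter table drawn from RefSeq on GRCr8 (Hs3st2, Dlk1 and Neurod1), and the 250 bases before their start sites are shown as the upstream sequence of genes that stood highest in the same lesion. Neurod1 stood only 0.19 above the next array and was below the array median there. Capitals mark matches, on either strand, to the motifs searched: the E-box CANNTG bound by bHLH factors such as NEUROD1, the SOX motifs ACAAAG and ACAATG, the GC-rich BMP-SMAD motif GGCGCC, the EBF motif TCCCNNGGG and the cAMP response element TGACGTCA. Hs3st2 lies on the plus strand at chr1:185387213-185387462, Dlk1 on the plus strand at chr6:134192347-134192596 and Neurod1 on the minus strand at chr3:84770455-84770704.
Hs3st2: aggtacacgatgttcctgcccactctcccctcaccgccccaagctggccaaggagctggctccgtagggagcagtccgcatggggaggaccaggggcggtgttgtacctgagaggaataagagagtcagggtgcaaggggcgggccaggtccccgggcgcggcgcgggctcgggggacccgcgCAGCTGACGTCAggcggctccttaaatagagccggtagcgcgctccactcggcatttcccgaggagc
Dlk1: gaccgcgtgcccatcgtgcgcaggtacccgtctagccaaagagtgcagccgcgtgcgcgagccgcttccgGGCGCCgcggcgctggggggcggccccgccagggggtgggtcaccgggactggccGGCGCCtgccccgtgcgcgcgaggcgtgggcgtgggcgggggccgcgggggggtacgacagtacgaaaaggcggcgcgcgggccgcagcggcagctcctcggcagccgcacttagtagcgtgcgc
Neurod1: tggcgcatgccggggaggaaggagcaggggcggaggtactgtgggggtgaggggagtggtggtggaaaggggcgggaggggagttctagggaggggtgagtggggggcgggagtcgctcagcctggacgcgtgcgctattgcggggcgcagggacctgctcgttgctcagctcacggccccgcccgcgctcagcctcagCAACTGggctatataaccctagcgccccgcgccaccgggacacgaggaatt
The Hs3st2 window held an E-box, CAGCTG, that shares its last 2 bases with a cAMP response element. A cAMP response element was found in 1.59% of 33469 promoters of this length and an E-box in 65.5%. The Dlk1 window held 2 copies of GGCGCC, which 8.69% of promoters hold, and was 78.0% G or C with 41 CpG, where the median promoter had 51.2% and 5 CpG. The Neurod1 window held 1 E-box, CAACTG, upstream of the stretch tatataa, and was 69.2% G or C. Over the 8 of the 10 genes with an entry, an E-box was found in 5, GGCGCC in 3, the EBF motif in 3, the cAMP response element in 1 and a SOX motif in 0, which 25.3% and 5.12% of promoters hold for the SOX and EBF motifs. All 8 windows were richer in G or C (53.6% to 78.0%) than the median promoter. The shares over all promoters were not matched for this. A match is a run of letters and was not set against binding.

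Sox4, a transcription factor of neural precursors, was highest in lesion replicate 1 (7.64). The other lesions gave 6.28, 6.00, 6.47, 6.72, 6.79 and 6.27 in the order of replicates 2 to 7, and the normal glands 6.41, 6.51, 6.44 and 7.03. Only lesion replicate 1 exceeded the highest normal gland, by 0.62, while lesions 2, 3 and 7 were below the lowest. The group means were 6.59 ± 0.54 (SD, n = 7) and 6.60 ± 0.29 (SD, n = 4), and the difference of -0.0019 (95% interval -0.57 to 0.57, adjusted p = 0.999) became -0.18 (-0.55 to 0.20, adjusted p = 0.799) without lesion replicate 1.

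Sox11, the close relative of Sox4, had its extremes in lesions 1 and 4. It was highest in lesion replicate 4 (5.16), lowest in lesion replicate 1 (4.37), and had a median of 4.65 over the lesions. The normal glands spanned 4.62 to 4.72. Lesion minus normal was -0.029 (95% interval -0.30 to 0.25, adjusted p = 0.984), and 0.020 (-0.24 to 0.28, adjusted p = 0.980) without lesion replicate 1. Its level was below the array median in 10 of 11 arrays, lesion replicate 4 being the exception.

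Neurod1, a bHLH factor that drives neuronal and endocrine differentiation, was at 4.40 in lesion replicate 1 and 4.21 in replicate 5. The other lesions gave 3.50 to 3.86 and the normal glands 3.77 to 3.85. Lesions lay on both sides of the narrow normal range, 3 above it and 4 below, and the difference was 0.011 (95% interval -0.36 to 0.38, adjusted p = 0.996). Without lesion replicate 1 it was -0.088 (-0.38 to 0.21, adjusted p = 0.889). Ebf3, a factor of maturing neurons, was at 4.68 in lesion replicate 3, 4.62 in replicate 1, 4.35 in replicate 4 and 4.23 in replicate 5, with 3.98 to 4.12 in the other 3 lesions. Normal glands spanned 3.84 to 4.12. The difference was 0.29 (95% interval -0.01 to 0.60, adjusted p = 0.675), or 0.24 (-0.05 to 0.53, adjusted p = 0.611) without lesion replicate 1, and 5 of 7 lesions were above the highest normal gland. Both genes were below the array median in all 11 arrays.

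Sncg was highest in lesion replicate 4 (7.46), followed by replicates 1 (7.20) and 7 (7.16), which were the 3 lesions above the normal glands. Lesions 6 and 2, at 6.13 and 6.34, were below them, and the normal glands gave 6.55, 6.95, 6.96 and 6.70. The mean difference was 0.040 (95% interval -0.47 to 0.55, adjusted p = 0.988), and -0.021 (-0.53 to 0.49, adjusted p = 0.991) without lesion replicate 1. Gamma-synuclein is also made by adipocytes, and the 6 adipocyte markers had their highest mean levels in lesion replicates 4 (7.23), 5 (7.15) and 7 (6.68), against 5.48 to 6.28 in the other lesions and 5.49 to 6.21 in normal glands; Adipoq, adiponectin, was at 7.80, 7.63 and 6.88 in those 3 lesions and at 4.72 to 6.49 in normal glands. Their part in the Sncg levels was not tested.

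Mab21l1, a nuclear protein needed for eye development, went the other way in the lesions of younger females. It was at 5.86 and 5.94 in lesion replicates 4 and 5, against 6.87, 7.14, 6.81, 6.81 and 6.63 in replicates 1, 2, 3, 6 and 7. The normal glands gave 6.77, 7.05, 7.14 and 6.68. Lesions 4, 5 and 7 were below the lowest normal gland and none was above the highest. Lesion minus normal was -0.33 (95% interval -0.84 to 0.18, adjusted p = 0.813), and -0.38 (-0.91 to 0.15, adjusted p = 0.664) without lesion replicate 1. In the same lesions 4 and 5 the chromaffin markers were 0.75 and 0.33 below the normal mean and the neuron markers 1.04 and 0.72 below it; whether these account for the Mab21l1 levels was not tested. Mab21l2, its closest relative, was at 6.31 and 6.09 there and at 6.75 to 7.38 in the other lesions, with 6.69 to 7.43 in normal glands.

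**Figure D2:**
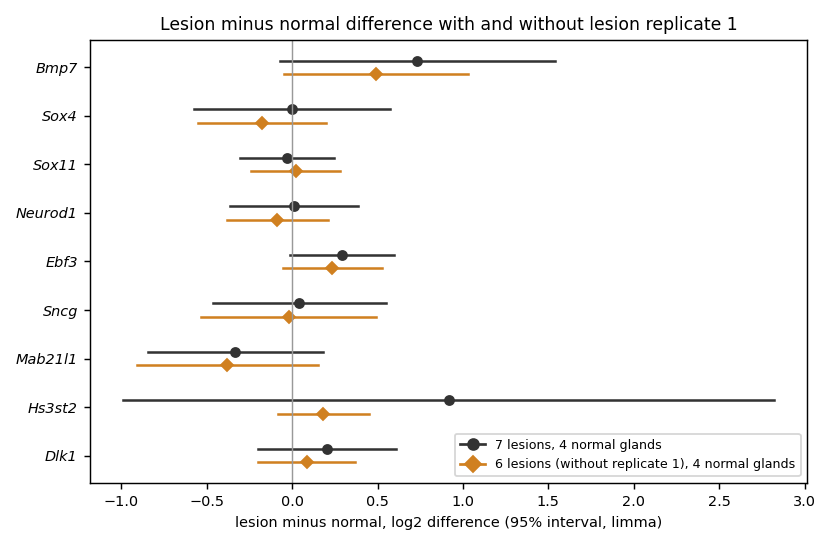
Lesion minus normal difference (horizontal axis, log2) of the 9 measured genes with 95% limma intervals, with all 7 lesions (dark) and without lesion replicate 1 (orange). All intervals include 0, and the Hs3st2 interval, -0.99 to 2.82 with all lesions, is -0.09 to 0.45 without that replicate.

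In the test of lesions against normal glands 0 of the 9 measured genes were called at an adjusted p under 0.05, where 0.065% of all probe sets were called. At an unadjusted p under 0.05 limma gave 0 of 9 genes and 2251 of 29214 probe sets (7.71%). The adjusted p-values of the 9 genes ran from 0.675 to 0.999. None of the 9 had all 7 lesions above all 4 normal glands, as 0.479% of probe sets had, and none had all lesions below, as 0.695% had. The intervals leave room for differences of up to 1.54 for Bmp7 and 2.82 for Hs3st2; that of Sox11 ran from -0.30 to 0.25.

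Age was compared within the lesions, 3 older against 4 younger, in a model of group by age class. Called genes were 0 of 9, against 0.0103% of probe sets, and 1 of 9 had an unadjusted p under 0.05, against 9.60% of probe sets. That gene was Mab21l1, 0.63 higher in older lesions (SE 0.24, 95% interval 0.10 to 1.17, adjusted p = 0.467). All 3 older lesions (6.81 to 7.14) lay at or above the 4 younger ones (5.86 to 6.81), lesions 3 and 6 being equal at 6.81. Hs3st2 differed by 1.68 (-0.61 to 3.97, adjusted p = 0.636), which was -0.047 (-0.44 to 0.35, adjusted p = 0.978) without lesion replicate 1. Bmp7 likewise went from 0.26 (adjusted p = 0.900) to -0.40 (adjusted p = 0.863) and Sox4 from 0.083 (adjusted p = 0.963) to -0.42 (adjusted p = 0.779), while Dlk1 went from 0.40 (-0.07 to 0.87, adjusted p = 0.578) to 0.16 (-0.25 to 0.57, adjusted p = 0.910). Sox11 was -0.29 (-0.60 to 0.02, adjusted p = 0.543) and -0.22 (adjusted p = 0.844) without that replicate.

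Lesions were also set against normal glands of their own age class. Among older rats 0 of 9 genes were called, against 0.0137% of probe sets. An unadjusted p under 0.05 was reached by 0 of 9 genes and 1489 probe sets (5.1%). Hs3st2 differed there by 1.93 (95% interval -0.81 to 4.67, adjusted p = 1.000), or 0.21 without lesion replicate 1, and Dlk1 by 0.48 (-0.08 to 1.04, adjusted p = 1.000), or 0.24 without it. Among younger rats 0 of 9 were called, against 0.0342%, and 0 of 9 genes and 1690 probe sets (5.78%) had an unadjusted p under 0.05. Mab21l1 was -0.60 there (-1.21 to 0.0037, adjusted p = 0.860), with lesions 4 and 5 lowest. That difference was -0.37 without normal replicate 3 and -0.83 without normal replicate 4, each of which leaves 1 younger normal gland. Bmp7 was 0.79 among younger rats (-0.41 to 1.98, adjusted p = 0.933). The age difference in lesions minus that in normal glands called 0 of 9 genes and 0% of probe sets. At an unadjusted p under 0.05 it gave 0 of 9 genes and 826 probe sets (2.83%). Males against females called 0 of 9 genes and 0% of probe sets. At an unadjusted p under 0.05 there were 1 of 9 genes, Bmp7, and 1154 probe sets (3.95%).

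Around Bmp7, the other genes of the BMP pathway were read from lists of ligands, receptors with SMADs, antagonists and targets. In lesions against normal glands 0 of 9 ligands, 0 of 14 receptors and SMADs, 0 of 11 antagonists and 1 of 11 targets passed the test. The medians of the lists were -0.086, 0.061, -0.14 and -0.085, beside 0.0064 over all probe sets. Without lesion replicate 1 they were -0.078, 0.070, -0.19 and 0.033, beside 0.0094, so the median of the targets turned sign. Id3, an inhibitor of bHLH factors that BMP signals induce, was the target called: it was at 7.27 to 7.86 in the 7 lesions and 9.07 to 9.59 in the 4 normal glands, with no overlap, and fell by 1.63 (SE 0.12, adjusted p = 0.000292). Id3 was low in lesions with high Bmp7 (7.86 in replicate 1, 7.27 in replicate 4) as in those with low Bmp7 (7.65 in replicate 7). Id1, its relative, was at 6.52 to 7.34 in lesions and 7.02 to 8.30 in normal glands (-0.53, adjusted p = 0.621). Of the receptors, Bmpr2, the type II receptor of BMP ligands, was at 9.09 to 9.45 in lesions and 9.73 to 9.86 in normal glands, a difference of -0.47 that missed the threshold (adjusted p = 0.0887). Bambi, a decoy receptor, had a difference of -0.80 (adjusted p = 0.291), and the ligands Bmp2 and Bmp3 had differences of -0.47 (adjusted p = 0.679) and -0.44 (adjusted p = 0.693).

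Relatives of the transcription factors showed 0 of 12 called among SOX genes (median 0.038), 0 of 14 among proneural bHLH genes (0.025, or -0.012 without lesion replicate 1) and 0 of 3 among EBF genes (-0.029). Sox18, a factor of the endothelium, had a difference of 0.42 (adjusted p = 0.673) and Sox12, the third SoxC gene beside Sox4 and Sox11, one of 0.27 (adjusted p = 0.813). Ebf1 differed by 0.18 (adjusted p = 0.787). Hes1, a repressor of proneural genes, was at 5.51 to 6.13 in older and 6.34 to 6.71 in younger lesions, a difference of -0.79 that did not pass (adjusted p = 0.289). Of the synuclein family, 0 of 2 measured relatives were called: Sncb, beta-synuclein, had a difference of -0.14 (adjusted p = 0.942) and Sncaip, a synuclein-binding protein, one of -0.25 (adjusted p = 0.606).

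Among 12 measured enzymes of heparan sulfate, 0 were called (median 0.0093). In lesion replicate 1, where Hs3st2 was high, the 6-O-endosulfatase Sulf1 was at 4.84 against 3.61 to 3.95 in the other arrays, and Sulf2, the second such enzyme, at 6.82 against 7.23 to 8.33. Around Dlk1, 0 of 16 genes of the DLK and Notch list (median -0.026) and 0 of 10 imprinted growth genes (-0.14) were called. Meg3, the noncoding RNA of the Dlk1-Dio3 imprinted domain, was at 9.72 to 10.34 in lesions and 9.43 to 9.82 in normal glands (0.46, adjusted p = 0.258), and Grb10, an imprinted adaptor that curbs growth factor receptors, was at 7.47 in lesion replicate 1 and 9.09 to 9.72 in the other 10 arrays. In the list of DOK adaptors and RET signalling, 0 of 14 were called (median 0.092). Ret, the receptor for GDNF-family signals that DOK5 binds, was at 8.32 in lesion replicate 1 and at 4.36 to 5.38 in the other 10 arrays, and Gfra2, a co-receptor, had a difference of -0.94 (adjusted p = 0.271).

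**Figure D3:**
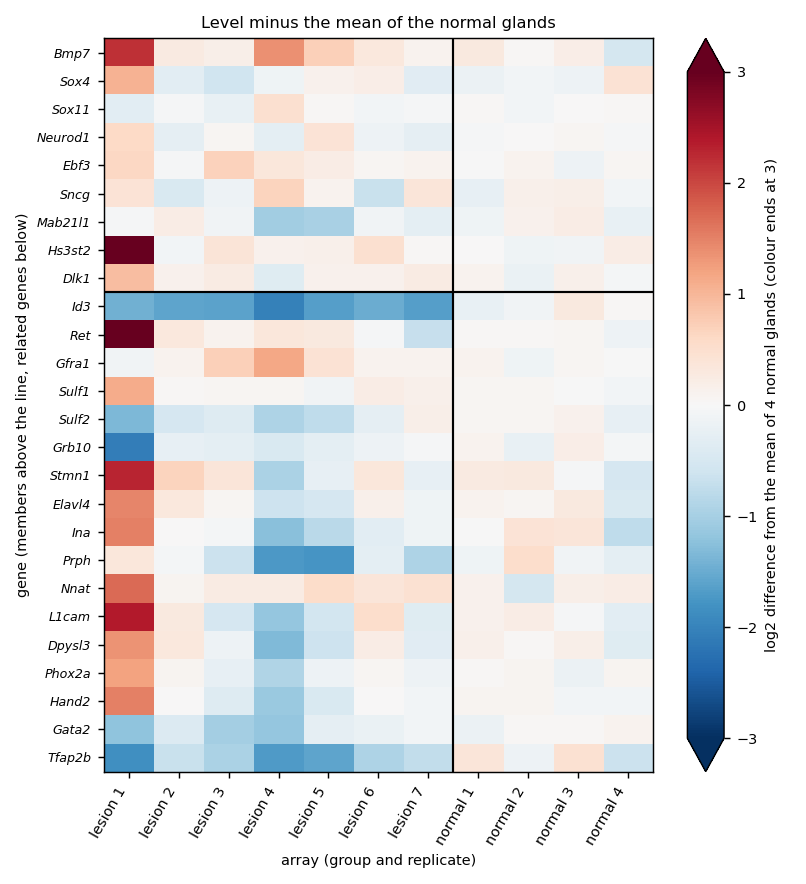
Log2 level minus the mean of the 4 normal glands (colour, ends at 3) for the 9 measured genes above the line and 17 related genes below it, in 11 arrays; the 17 were picked after their values were seen, as listed genes with a lesion at least 2-fold outside the normal range. Lesion replicate 1 is red for Bmp7, Hs3st2, Ret, Stmn1 and L1cam, lesion replicates 4 and 5 are blue for Mab21l1 and Prph, and Id3 is blue in all 7 lesions.

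Many neuronal genes beyond the list were also high in lesion replicate 1, and some were low. Of 25 early neuronal genes, it was the highest array for 14 (13.1% over all probe sets) and the lowest for 3. It was below the lowest normal gland for 4. Levels at least 2-fold above the highest normal gland were seen at 6, against 1.43% of all probe sets in this array. These 6 were Stmn1, Elavl4, Ina, Nnat, L1cam and Dpysl3, named after their values were seen. The shares of all probe sets lowest in this array, or below the lowest normal gland, were not counted. L1cam, an adhesion molecule of growing axons, was at 8.52 there and at 4.98 to 6.66 in the other arrays, and Stmn1, which destabilises microtubules, at 11.14 against 7.91 to 9.52. The sympathoadrenal factors Phox2a and Hand2 were also highest there (7.66 against 5.55 to 6.54, and 10.72 against 8.11 to 9.30). Gata2 and Tfap2b, other factors of that lineage, were in contrast at least 2-fold below the lowest normal gland in lesion replicate 1 (6.58 and 6.75, where normal glands were at 7.63 to 7.89 and 7.94 to 9.03). In lesion replicate 4 Gata2, Tfap2b and Hand2 were also at least 2-fold below the lowest normal gland.

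Across all lesions these lists held no call. Against normal glands 0 of 25 early neuronal genes passed (median -0.13; -0.30 without lesion replicate 1) and 0 of 8 sympathoadrenal factors (-0.15; -0.35 without it). Nefm, a neurofilament protein, had a difference of -0.95 (adjusted p = 0.302), Prph, peripherin, -0.72 (adjusted p = 0.711) and Tfap2b -1.20 (adjusted p = 0.258). In older against younger lesions 0 of 25 passed as well, with 21 of 25 differences above 0 and a median of 0.44 beside -0.018 over all probe sets; without lesion replicate 1 these were 20 of 25 and 0.32. The neuron, chromaffin and cortex markers had medians of 0.68, 0.37 and -0.64 in the same comparison (0.56, 0.29 and -0.21 without lesion replicate 1). All neuron markers but Syt1 and Snap25 are also in the early neuronal list, so their median is no separate measure. The part of the chromaffin and cortex markers in the neuronal differences was not tested. Dividing-cell markers had a median of 0.96, with 2 of 9 called higher in older lesions, against 0.0103% of probe sets. Without lesion replicate 1 the median was 0.91 and 1 of 9 was called.

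**Figure D4:**
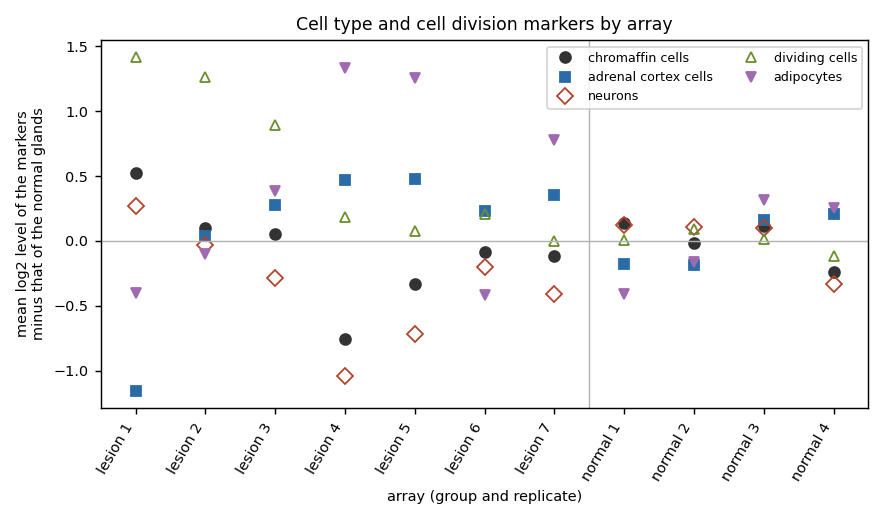
Mean log2 level of 5 marker lists in each array minus their mean in the 4 normal glands; arrays are along the horizontal axis and each symbol is a list. Lesion replicate 1 is highest for chromaffin (0.52) and dividing-cell (1.42) markers and lowest for cortex markers (-1.15), and lesion replicates 4 and 5 are highest for adipocyte markers (1.33 and 1.25) and lowest for neuron markers (-1.04 and -0.72).

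The lesions with high levels of the listed genes also differed in marker levels. In lesion replicate 1 the cortical markers were 1.15 below the normal mean, with Cyp11b1 (steroid 11-beta-hydroxylase) at 9.72 against 10.80 to 11.49 elsewhere. The chromaffin markers there were 0.52 above the normal mean and the neuron markers 0.27 above it, but not all members rose. Of 11 chromaffin markers 7 were above the highest normal gland and 3 below the lowest. Of 10 neuron markers these were 5 and 2. In this array 22.5% of all probe sets were above the highest normal gland, and the share below the lowest was not counted. In lesion replicate 4, with high Bmp7, Sox11 and Sncg, the chromaffin markers were 0.75 below, the cortical markers 0.47 above and the adipocyte markers 1.33 above the normal mean. Dividing-cell markers were 1.42, 1.26 and 0.89 above it in lesion replicates 1, 2 and 3 and at most 0.21 above it in the younger lesions; their part in the levels of the listed genes was not tested. The prolactin transcript Prl was at 7.05 to 8.95 in the 4 younger lesions and 4.23 to 4.61 in the other 7 arrays; its part in the levels of the listed genes was not tested.

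Each gene was last set beside the 14505 other named genes by the root mean square difference of centred log2 profiles over the 11 arrays, as a description. The nearest to Hs3st2 were Tbx4, a T-box transcription factor, and Gpr139, an orphan receptor (0.368 and 0.374, where the Hs3st2 profile itself has a root mean square of 1.51). Tbx4 was at 10.45 in lesion replicate 1 and 5.67 to 6.82 in the other arrays, and Gpr139 at 9.66 against 3.76 to 5.44. Nearest to Bmp7 were Plat, tissue plasminogen activator, and Wdr72 (0.351 and 0.361 against a profile of 0.699). Plat was at 10.08 in lesion replicate 1, 9.27 in replicate 4 and at most 8.83 in the other arrays. Sox4 had Tlcd3b and Tacc2 beside it (0.161 and 0.166 against 0.424), and Dlk1 had Tubb5, a beta-tubulin, and Tcf12, a bHLH partner factor (0.0937 and 0.114 against 0.311). Nearest to Mab21l1 were Amd1, an enzyme of polyamine synthesis, and Rpgrip1l, a cilium protein (0.116 and 0.125 against 0.411); Amd1 was at 8.80 and 8.71 in lesion replicates 4 and 5 and 9.36 to 9.95 elsewhere. The nearest genes to Sncg (Fam222b, 0.196, and Gapdhs, 0.211, against 0.374), Sox11 (Capn12, 0.0770, and Lsm12, 0.0784), Neurod1 (Cct6b, 0.112, and H2ac4, 0.122, against 0.268) and Ebf3 (Isg20, 0.113, and Tac1, 0.120, against 0.254) complete the list.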

How the data were processed

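Expression was measured on 11 arrays, 7 of adrenal lesions and 4 of normal adrenal glands. Per the labels' protocols, total RNA was amplified with the Ovation PicoSL WTA System V2 and carried a biotin label. The deposited values are log2 levels of probe sets; the submitters' processing notes name RMA and Affymetrix Expression Console (1.3.0.187). RMA forces arrays to a common distribution, so a shift of all genes would not be seen; array medians were 4.91 to 5.01. For the summary level and the build of the probe design, nothing is given in the sources used here. Values were used as they stand, with no floor or filter. Probe sets were named from the platform annotation (15310 with 1 symbol, 323 with several, 13581 unlisted and unnamed here).

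The two-sided tests were those of limma 3.58.1 (lmFit and eBayes, R 4.3.3). P-values were adjusted by Benjamini-Hochberg over the 29214 probe sets, and a gene was called where the adjusted p was under 0.05. Group alone was the model for lesions against normal glands, group by age class for age, and sex with group for sex. The code was tested on simulated data. The genes, gene lists, naming rule and tests were chosen with earlier results of these data known. The naming rule took every listed gene and, for each measured one, the 2 nearest profiles. From each related list it took the genes called and up to 2 with the largest difference. It was not kept in full. H19 (lesion minus normal -0.60) and Extl3 (-0.45) were left out, while Meg3 (0.46) and Sulf1 (0.22) were named. Other genes were named after their values were seen. Promoters came from a RefSeq table of GRCr8, which gave 8 of 10 genes (none for Bmp7 and Sox4). Python 3.11.15 and matplotlib 3.10.9 drew the figures. Replicate numbers were not taken to pair lesions with normal glands.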

Additional observations from a re-analysis of the deposited data

Results flagged for a closer look

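In 18 sets of 1 gene and 1 group, 3 held an array far from the others of its group by Dixon's criterion, which by chance marks about 1 in 20 such sets. Hs3st2 at 9.226 in lesion replicate 1 lay apart from the other 6 lesions, with a gap of 0.896 of the range of the group. Sox4 at 7.027 in normal replicate 4 lay above the other normal glands, with a gap of 0.845 of their range. Sox11 at 4.62 in normal replicate 2 lay below the other normal glands, with a gap of 0.842 of a range that is itself narrow.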

How the results depend on the processing

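Under all alternatives run (renewed quantile normalization, median centring, brighter probe sets alone (which leaves out Sox11, Neurod1, Ebf3 and Hs3st2), trend and robust settings in eBayes, weights of arrays, 1 probe set per gene, sex or age class in the model, the replicate block, subsets by age or sex, lesions alone, and each array left out), 0 of the measured genes were called in any of the 6 comparisons. Lesion minus normal kept its sign for Bmp7, Ebf3 and Hs3st2 in every alternative. Sox4 turned to 0.012 with renewed quantile normalization, 0.016 with sex in the model, 0.18 in older and 0.52 in female arrays. Neurod1 turned to -0.0052 with quantile normalization, -0.072 with array weights, -0.087 in younger and -0.15 in male arrays. Sncg turned to -0.086 with weights, -0.027 in older and -0.26 in male arrays, Mab21l1 to 0.030 in older arrays, Sox11 to 0.073 in younger and 0.037 in female arrays, and Dlk1 to -0.017 in younger arrays. Older minus younger lesions turned to -0.082 for Sox4 with weights. The cause was not tested.

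With each array left out, lesion minus normal ranged from -0.18 to 0.14 for Sox4, -0.11 to 0.020 for Sox11, -0.088 to 0.062 for Neurod1 and -0.064 to 0.16 for Sncg. Older minus younger ranged from -0.40 to 0.61 for Bmp7, -0.42 to 0.40 for Sox4, -0.030 to 0.41 for Neurod1, -0.45 to 0.0078 for Sncg and -0.047 to 2.66 for Hs3st2. The count of all probe sets called in lesion minus normal, 19, ranged from 5 (without normal replicate 3) to 28 and was 11 without lesion replicate 7. In older minus younger lesions, 3 became 39 without lesion replicate 2, 7 without replicate 3, 6 without replicate 6 and 1 without lesion replicate 1 or 4 or any normal gland. The counts ranged from 1 to 8 (main 4) in older and from 3 to 13 (main 10) in younger rats. Lesion minus normal gave 30 among brighter probe sets, 31 with weights, 5 in younger arrays and 0 in older, male or female arrays. With weights, older lesions minus older normal gave 10, and with lesions alone the age comparison gave 1.

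Deviations of same-numbered lesions and normal glands correlated at 0.18, 0.15, 0.073 and 0.21. Differently numbered arrays were not compared, so these values cannot show whether the numbers are pairs. The numbers were not taken as pairs. With the replicate block 0 genes were called, the count of all probe sets in lesion minus normal was 3, and 0 in the age comparisons. Only replicate numbers 1 to 4 occur in both groups, so lesions 5, 6 and 7 added nothing to the differences fitted with the block. Bmp7 in older minus younger lesions turned to -1.89, a value set by replicates 3 and 4 alone (lesions 6.10 and 7.28, normal glands 6.11 and 5.40). Sox4 in lesion minus normal was 0.0015.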
